A study of Mus musculus with 15 samples.

Results

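The deposited junction lists were searched for the tail of DNA just downstream of the core of Sγ1, the switch region in front of the IgG1 constant gene. A junction belonged to the tail when its prey end lay on chromosome 12 from 114.552 Mb up to 114.569 Mb of the mm9 build, in either orientation, and the junctions found ran from 114552061 to 114568998. The 10 lists with positions from C57BL/6 mice held 42200 junctions, 36735 of them in the Igh window (114.45 to 114.7 Mb), and 1236 in the 17-kb tail. The core (114.569 to 114.577 Mb) held 17162 junctions. The boundary between core and tail was set from lines drawn on the study's plots and not from sequence, and the 1-kb bin just above it held 344 junctions against 207 in the first 1-kb bin below it and 20 in the bin beyond the far end of the tail.

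Splenic B cells from sex- and age-matched mice were cultured with LPS, IL-4 and dextran-coupled anti-IgD, which together turn on AID and direct switching to IgG1. CSR-HTGTS reads junctions between a fixed bait in the 5′ part of Sμ and whatever broken end (the prey) it joined, from sheared genomic DNA. The genotypes were WT, Shld1-/-, Xlf-/- and Shld1-/-Xlf-/-, as whole-animal knockouts (the Shld1 allele is a CRISPR/Cas9 deletion of the coding sequence), so every cell of a mouse lacked the gene, and all groups shared the C57BL/6 background, the bait and the stimulation. A further label field names deletions or insertions at Igh that the study's methods do not describe for these mice, and it was not used.

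The genotype of 6 of the 10 libraries was given differently by the sample labels and by the study's figures, where libraries can be recognised because their junction count in the Sγ1 window is printed. Libraries are therefore named here by printed genotype and a letter. WT A was also labelled WT, Shld1-/- B was labelled Shld1-/-, Xlf-/- B was labelled XLF-/-, and Shld1-/-Xlf-/- B was labelled Shld1-/-XLF-/-. WT B carried the label Shld1-/- and WT C the label XLF-/-. Shld1-/- A carried the label WT and Shld1-/- C the label Shld1-/-XLF-/-. Xlf-/- A carried the label WT, and Shld1-/-Xlf-/- A the label XLF-/-. Each main test between genotypes below is given for the printed genotypes and for the labels, and which of them is right was not tested. The study states 3 mice per genotype, and p-values measure the spread between these libraries.

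As background, AID-initiated breaks in Sμ and a downstream switch region are joined by end joining, so that the DNA between them is lost and a new constant gene follows the variable region. SHLD1 is a subunit of shieldin, which acts with 53BP1 at broken ends to limit resection, the trimming of one strand from the end. XLF is a factor of classical non-homologous end joining. A junction below the core marks a prey end that lay outside the repetitive core when it was joined, and in the mouse the stretch just downstream of Sγ1 holds the exons of Ighg1 itself.

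Reads across tail junctions are shown first, because the lists describe each junction only by numbers. Each run below is the read as sequenced, 5′ to 3′, with up to 25 bases of Sμ bait, then the bases that match both bait and prey (microhomology, MH) in capitals, then up to 40 bases of prey. The first 4 runs are the longest MH, matched exactly on both sides, of each printed genotype. Positions are on mm9 and the prey reads away from the position given.
WT B, chr12 position 114561423, inversional, 6 bp of MH: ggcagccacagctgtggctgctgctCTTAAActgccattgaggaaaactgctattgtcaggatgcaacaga
Shld1-/- C, chr12 position 114564896, deletional, 10 bp of MH: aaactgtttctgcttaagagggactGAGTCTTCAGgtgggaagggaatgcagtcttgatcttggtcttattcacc
Xlf-/- B, chr12 position 114558506, deletional, 7 bp of MH: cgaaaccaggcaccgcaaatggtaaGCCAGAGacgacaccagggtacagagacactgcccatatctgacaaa
Shld1-/-Xlf-/- A, chr12 position 114560558, deletional, 8 bp of MH: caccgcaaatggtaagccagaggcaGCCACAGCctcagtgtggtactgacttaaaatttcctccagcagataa

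The next 3 runs are the deletional junctions farthest below the core in WT, Shld1-/- and Shld1-/-Xlf-/- libraries, all at 16.9 kb, and show joins of Sμ to ends near the lower edge of the tail. That edge is set by the definition, and 20 junctions lay in the next 1-kb bin beyond it. WT libraries held 8 of those 20, against 2 junctions in the last bin of the tail. The farthest deletional junction of the Xlf-/- libraries, at 10.5 kb, is the read already shown for that genotype. The prey part of the last read is shorter than 40 bases.
WT B, chr12 position 114552079, 5 bp of MH: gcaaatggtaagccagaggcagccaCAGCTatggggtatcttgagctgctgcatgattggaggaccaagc
Shld1-/- A, chr12 position 114552061, 4 bp of MH: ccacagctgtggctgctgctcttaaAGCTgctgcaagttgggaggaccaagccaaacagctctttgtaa
Shld1-/-Xlf-/- A, chr12 position 114552077, 3 bp of MH: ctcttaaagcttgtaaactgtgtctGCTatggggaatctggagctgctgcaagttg

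The lists held 1590 to 8531 junctions per library and 1159 to 8110 in the Igh window. No tail junction carried the pipeline's flag for duplicates or for mapping quality, whereas 7.98% to 14.9% of core junctions were flagged as duplicates and 24.8% to 43.1% for mapping quality. Unflagged copies remain possible, since collapsing rows of a library with the same position, strand and bait end left 1208 of 1236 tail junctions. In none of the 45 library pairs did a read name occur in both lists. Intervals below are 95% Wilson intervals for counting error only, since the reads carry no molecular identifiers.

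WT libraries joined Sμ to the tail in only a few of every 1000 Igh junctions, and libraries printed as lacking SHLD1 did so many times more often. The share of Igh junctions that lay in the tail was 0.22%, 0.42% and 0.41% in WT A, B and C, from 9, 34 and 31 junctions. It was 5.66%, 9.61% and 9.56% in Shld1-/- A, B and C, from 120, 277 and 242 junctions. Shld1-/- A lay below B and C, with an interval of 4.75% to 6.73% that does not reach theirs. The share was 2.15% and 3.45% in Xlf-/- A and B, from 47 and 127 junctions, and 9.94% and 9.32% in Shld1-/-Xlf-/- A and B, from 241 and 108 junctions. All 5 libraries printed without SHLD1 lay above all 5 with it, and both Xlf-/- libraries lay above all WT libraries. Group means were 0.35% ± 0.11 in WT (SD, n = 3), 8.28% ± 2.26 in Shld1-/- (SD, n = 3), 2.80% ± 0.91 in Xlf-/- (SD, n = 2) and 9.63% ± 0.44 in Shld1-/-Xlf-/- (SD, n = 2).

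With printed genotypes, the tail share was 7.38 percentage points higher without SHLD1, averaged over XLF genotypes (exact two-sided permutation within XLF genotypes, p = 0.0167, the smallest the 120 arrangements allow, and 0.05 after Benjamini-Hochberg adjustment over 10 tests). With so few libraries the adjusted value lies on the threshold of 0.05 and not under it, here and wherever an adjusted p of 0.05 is given. The difference was 7.93 points with XLF and 6.83 points without it, and the gap between these differences did not pass (exact permutation p = 0.9). For loss of XLF the share was 1.90 points higher, at an exact permutation p of 0.05 and an adjusted p of 0.0714. As a share of core and tail junctions together, an alternative outside the 10 tests, the XLF difference was 7.68 points (exact permutation p = 0.01, not adjusted). That share also rises when core junctions are fewer.

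By label, the same share was 3.59 points higher for SHLD1 loss (exact permutation p = 0.2, adjusted 0.625) and 3.17 points higher for XLF loss (exact permutation p = 0.317, adjusted 0.625). Libraries labelled WT ranged from 0.22% to 5.66%, and those labelled Shld1-/- from 0.42% to 9.61%. Those labelled XLF-/- ranged from 0.41% to 9.94%, and the pair labelled Shld1-/-XLF-/- stood at 9.56% and 9.32%.

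**Figure D1:**
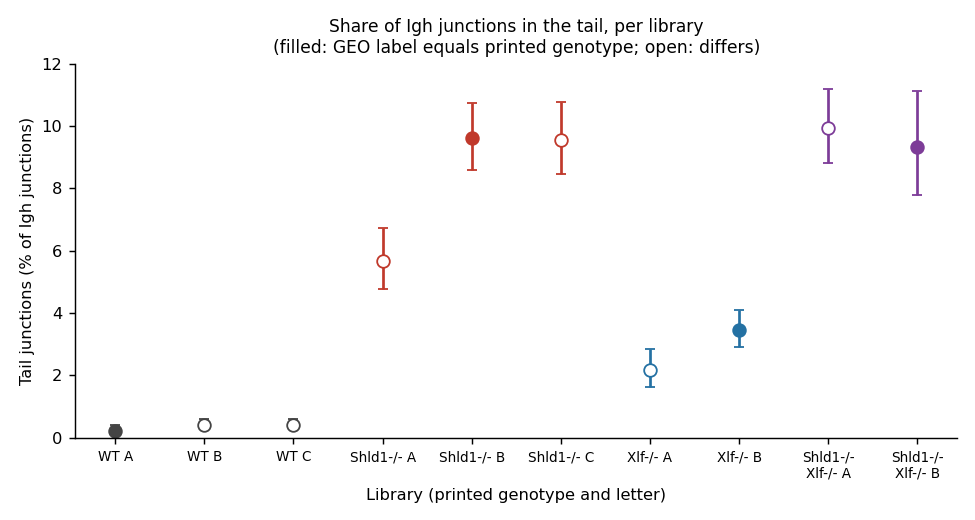
Tail junctions as a percent of Igh junctions (y axis) in each of the 10 libraries (x axis), with 95% Wilson intervals. Colour gives the printed genotype and open points are the 6 libraries whose label differs from it. The 3 WT points lie under 1%, the Xlf-/- points at 2.15% and 3.45%, and the 5 points without SHLD1 from 5.66% to 9.94%.

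Set against the core alone, the tail weighed more still. It held 0.38% to 0.66% of core and tail junctions in WT, 4.71% and 6.78% in Xlf-/-, 22.1% to 30.6% in Shld1-/-, and 38.4% and 36.5% in Shld1-/-Xlf-/-. Here the Shld1-/-Xlf-/- pair lay above all Shld1-/- libraries, which it did not for the share of Igh junctions. The core held 188 to 627 junctions in libraries printed without SHLD1 and 950 to 5127 in the others, so this second ratio rises both with more tail junctions and with fewer core junctions.

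WT libraries lay apart from all others at the start of the decline below the core. Libraries printed with and without SHLD1 differed in its reach. In the last kilobase of the core the libraries held 3.41 to 9.86 junctions per 1000 Igh junctions in WT, 5.19 to 12.6 in Shld1-/-, 6.88 and 15.5 in Xlf-/-, and 9.90 and 12.1 in Shld1-/-Xlf-/-, so all genotypes overlapped there. In the first kilobase below it WT libraries had dropped to 1.22, 2.10 and 2.39 per 1000. Shld1-/- libraries held 7.55, 9.71 and 8.69 in that kilobase, and Shld1-/-Xlf-/- libraries 7.43 and 8.63. Xlf-/- libraries held 10.5 and 13.6, the highest of all 10. In the first kilobase the WT libraries thus lay below all others, and the Xlf-/- libraries above those without SHLD1, an order that was not tested.

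In the second kilobase the Xlf-/- libraries lay below those without SHLD1. From 1 to 2 kb the Xlf-/- libraries held 4.59 and 5.97 junctions per 1000, the Shld1-/- libraries 7.55 to 12.1, and the Shld1-/-Xlf-/- libraries 15.7 and 16.4. Over the 17 bins of 1 kb, the libraries printed without SHLD1 all exceeded those with it in 11 bins, or 64.7%. The same held for 14.1% of the 206 other 1-kb bins of the Igh window with a junction in any library. Separation needs a junction in every library without SHLD1, so the sparsest of those bins could not show it. The shares are therefore not matched for junction count. They overlapped in the first bin, where the Xlf-/- libraries were high, and in the third, where the ranges were 5.92 to 8.63 and 0 to 6.24 per 1000. The other 4 bins without separation lay beyond 10 kb, where counts were low.

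The profile without SHLD1 was not a smooth decline. In Shld1-/-Xlf-/- it had peaks at 1 to 2 kb (mean 16.04 per 1000) and at 3 to 4 kb (15.6), with 7.61 in the bin between them, in both libraries. In Shld1-/- the mean stayed between 7.03 and 9.46 per 1000 in every bin from the core to 7 kb below it, then fell to 3.61 at 8 to 9 kb and 0.72 in the last bin. Shld1-/- A fell earlier than B and C, from 8.49 per 1000 at 3 to 4 kb to 1.89 at 7 to 8 kb, where B and C held 6.94 and 9.48. In WT no bin of the tail beyond 3 kb had a mean above 0.21 per 1000, but the bin just past the tail's lower edge had 0.50.

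**Figure D2:**
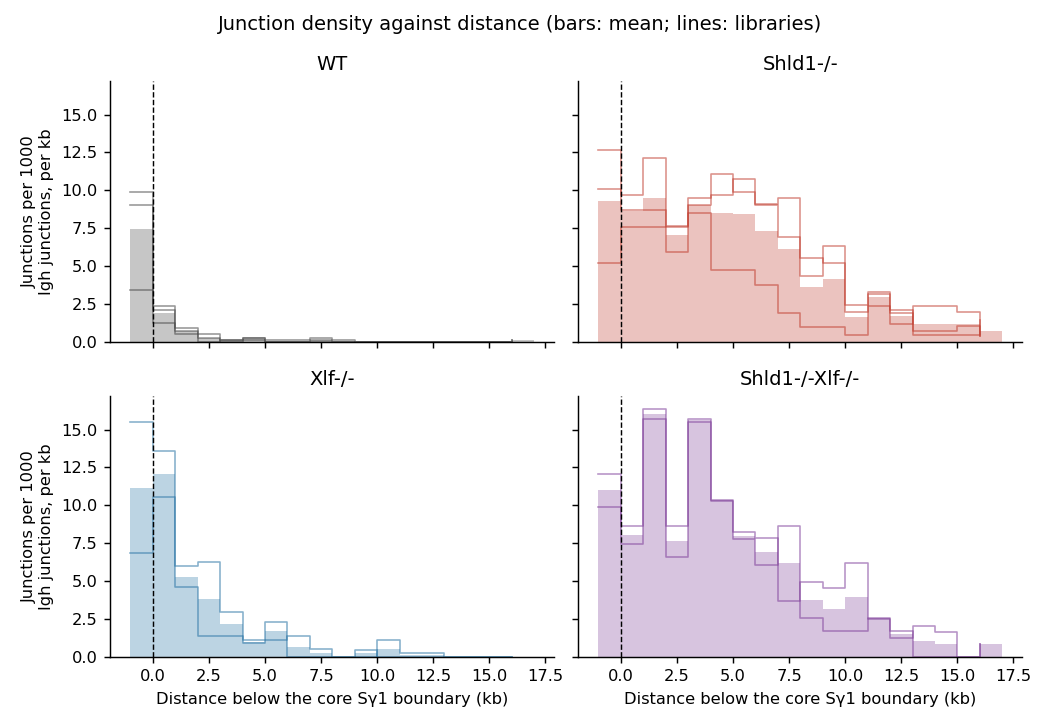
Junctions per 1000 Igh junctions in each 1-kb bin (y axis) against distance below the core boundary (x axis, kb), for the 4 printed genotypes. Bars are group means, lines are libraries, and the bin left of the dashed line is the last kilobase of the core. The WT and Xlf-/- profiles drop within the first kilobases, while the mean profiles without SHLD1 are still at 6.10 and 6.17 junctions per 1000 in the bin from 7 to 8 kb.

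The median tail junction lay 0.86, 0.98 and 0.71 kb below the core in WT A, B and C and at 1.05 and 1.43 kb in Xlf-/- A and B. It lay at 3.67, 4.93 and 5.30 kb in Shld1-/- A, B and C and at 4.49 and 3.92 kb in Shld1-/-Xlf-/- A and B. No library without SHLD1 overlapped one with it. From the first 5 kb to the next 5 kb the density fell to 0%, 10% and 11.1% of its first value in WT and to 14.6% and 10% in Xlf-/-. It fell to 34.2%, 77.7% and 89.2% in Shld1-/- and to 52.6% and 44.9% in Shld1-/-Xlf-/-.

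The share of tail junctions 5 kb or more below the core was 0%, 11.8% and 12.9% in WT, where 0 of 9 junctions in WT A allows a share of up to 33.3% (3 junctions of 9, a bound used for counts of 0 in place of the Wilson limit). It was 12.8% and 13.4% in Xlf-/-, 36.7%, 49.8% and 54.1% in Shld1-/-, and 44.0% and 36.1% in Shld1-/-Xlf-/-. With printed genotypes this share was 32.8 points higher without SHLD1 (exact permutation p = 0.0167, adjusted 0.05) and differed by −0.99 points without XLF (exact permutation p = 0.89, adjusted 0.89). By label the differences were 18.01 points for SHLD1 (exact permutation p = 0.17, adjusted 0.625) and 10.6 points for XLF (exact permutation p = 0.383, adjusted 0.625). The Xlf-/- libraries held more tail junctions than WT, at far shares of 12.8% and 13.4% that lay within or just above the 0% to 12.9% of WT.

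The tail begins a short way above Ighg1, the gene for the IgG1 constant region, and runs through it. Because the lists are on mm9, each tail read was matched by its own bases to GRCm38, and 1228 of 1236 junctions were placed. In GRCm38 with GENCODE vM21 annotation, Ighg1 lies on the minus strand at chr12:113325240-113330523, with its CH1 exon at chr12:113330233-113330523. The placed junctions ran from 113330787 down to 113313850, so that 56 of 1014 deletional ones lay between core and CH1, 262 from CH1 to the end of CH3, 368 in the part with the membrane exons M1 and M2, and 328 below the gene. A deletional junction inside the gene removes at least part of the exon row from the switched chromosome, and one below the gene removes every Ighg1 exon.

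These places differed with genotype as the distances did. In WT 55 of 68 placed deletional junctions lay at or below CH1, which is 0.28% of all WT Igh junctions, and 6 lay below the gene. In Xlf-/- the numbers were 135 of 151 at or below CH1, or 2.30% of Igh junctions, and 16 below the gene. In Shld1-/- 501 of 519 lay at or below CH1, or 6.65% of Igh junctions, and 215 below the gene, and in Shld1-/-Xlf-/- 267 of 276 lay at or below CH1, or 7.45%, and 91 below the gene. The share of a library's placed deletional tail junctions that lay below the whole gene was 27.3%, 43.3% and 46.4% in Shld1-/- A, B and C and 37.1% and 24.4% in Shld1-/-Xlf-/- A and B. It was 0%, 6.67% and 13.8% in WT and 10% and 10.8% in Xlf-/-. These genotype sums join libraries of unequal size and were not tested.

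Within Ighg1, exons and introns were both hit. Of the deletional junctions inside the gene 313 were in exons and 317 in introns. The CH1 exon (291 bp) held 52, the hinge exon (39 bp) 6 and the CH2 exon (321 bp) 54. The CH3 exon with the secreted tail (425 bp) held 55, M1 (131 bp) 19 and the last exon, with M2 (1385 bp), 127. The whole gene spans 5284 bp, and whether exons were hit more often than their length alone gives was not tested.

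**Figure D3:**
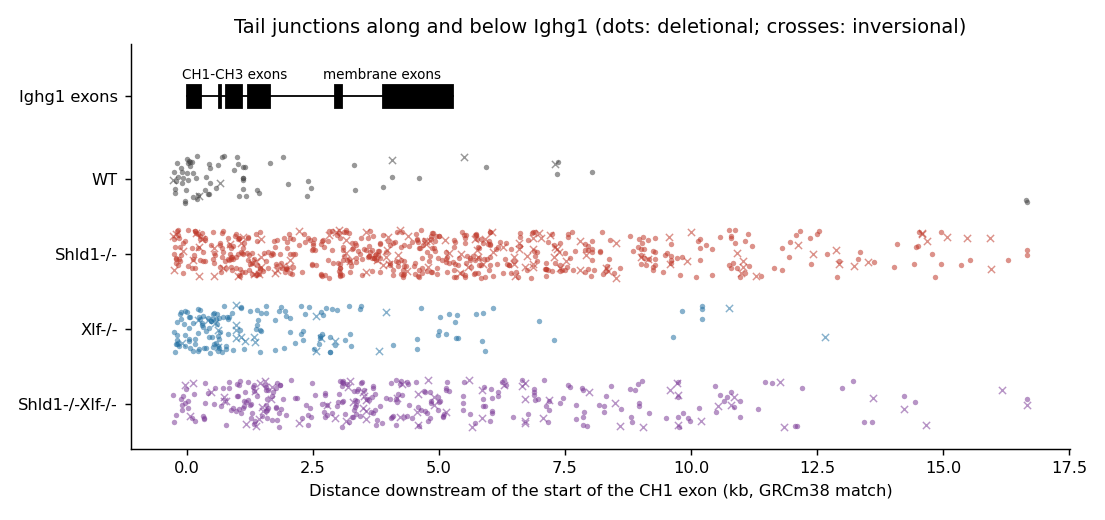
Each placed tail junction by its distance downstream of the start of the CH1 exon (x axis, kb, from the GRCm38 match), in 1 row per printed genotype with random vertical spread, and the Ighg1 exons as boxes on top. Dots are deletional and crosses inversional. WT and Xlf-/- points crowd around CH1 to CH3, while Shld1-/- and Shld1-/-Xlf-/- points fill the gene and run on below it.

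Most tail junctions were deletional, the orientation of productive switching, in every library. Of 1236 tail junctions 1021 were deletional and 215 inversional. The inversional share was 0%, 11.8% and 6.45% in WT, from 0 of 9, 4 of 34 and 2 of 31 junctions. It was 15.8%, 18.8% and 18.6% in Shld1-/-, 14.9% and 11.8% in Xlf-/-, and 22.0% and 16.7% in Shld1-/-Xlf-/-. With printed genotypes the share was 8.82 points higher without SHLD1 (exact permutation p = 0.0167, adjusted 0.05), and all 5 libraries without it exceeded all 5 with it. The nearest pair, 15.8% and 14.9%, was far closer than their intervals of 10.4% to 23.4% and 7.41% to 27.7%. For XLF the difference was 4.44 points (exact permutation p = 0.11, adjusted 0.138). By label the differences were 4.62 points for SHLD1 (exact permutation p = 0.33, adjusted 0.625) and 2.77 points for XLF (exact permutation p = 0.5, adjusted 0.625).

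The share of junctions that were inversional was higher above the core than below it. The stretch of 17 kb above the core, between Sγ1 and the bait, held 472 junctions, and 38.1% to 78.4% of a library's junctions there were inversional. The flank above exceeded the tail in inversional share by 45.1 points ± 10.5 (SD, n = 10; exact two-sided sign-flip permutation p = 0.00195, the smallest 10 libraries allow, adjusted 0.0117), and it did so in 10 of 10 libraries. Comparisons with the flank were added after the data were seen, so their p-values only describe these values and are not used as support. The adjustment covers 6 tests, planned and added together. The tail held more junctions than the flank, by 3.23 points of the Igh total ± 2.86 (SD, n = 10; exact sign-flip permutation p = 0.00391, adjusted 0.0117), in 9 of 10 libraries and not in WT A. The flank separated the printed SHLD1 genotypes too. It held 1.75% to 3.63% of Igh junctions in libraries without SHLD1 and 0.24% to 1.63% in those with it.

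The surplus of the tail over the upper flank lay in deletional junctions. In all 10 libraries deletional junctions made up more of the Igh total in the tail than in the flank, and inversional junctions less. In libraries printed without SHLD1, deletional tail junctions were 4.76% to 7.80% of Igh junctions and deletional flank junctions 0.38% to 1.42%. Inversional junctions were near each other on both sides, at 0.90% to 2.19% in the tail and 1.37% to 2.502% in the flank. Between tail and core the inversional share did not move one way. It was 18.7% to 41.0% in the core of libraries without SHLD1 and lower in the tail of each, 8.42% and 14.7% in the core of the Xlf-/- pair, and 3.998% to 4.95% in the WT core. Over all 10 libraries the tail minus the core was −4.99 points ± 9.497 (SD; exact sign-flip permutation p = 0.133, adjusted 0.199), lower in 7 and higher in 3.

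**Figure D4:**
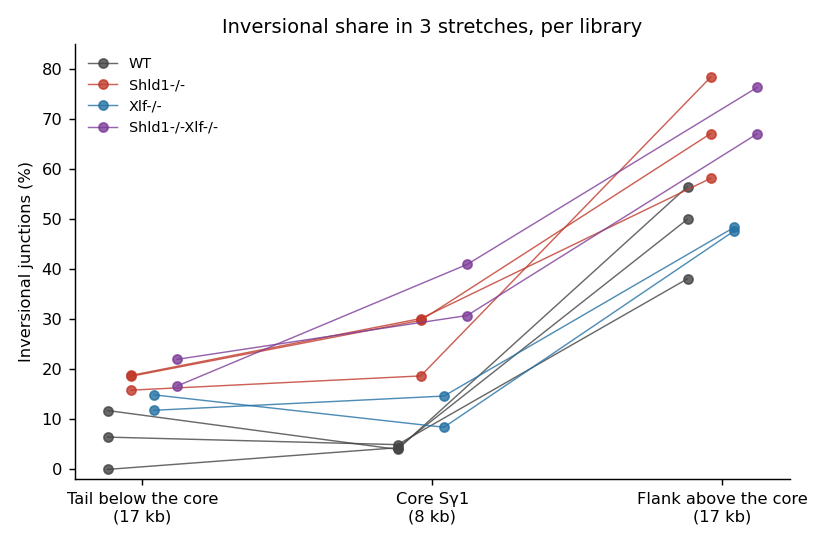
Inversional junctions as a percent of all junctions (y axis) in the tail, the core and the flank above it (x axis), with 1 line per library coloured by printed genotype. Every line ends highest in the flank, and in the 5 libraries without SHLD1 the tail point lies below the core point.

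Inversional tail junctions lay somewhat farther out than deletional ones in the libraries where both were plentiful. The medians were 5.09 against 3.44 kb in Shld1-/- A, 5.69 against 4.86 kb in B and 6.54 against 5.19 kb in C. They were 4.85 against 4.43 kb in Shld1-/-Xlf-/- A and 5.54 against 3.73 kb in B. In Xlf-/- the order was 1.61 against 1.02 kb in A and 1.33 against 1.65 kb in B, with 7 and 15 inversional junctions. This order was noted after the values were seen and was not tested.

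Tail junctions used microhomology widely. Of 1236, 166 carried an insertion, 73 were direct joins (0 bp of MH), 649 had 1 to 3 bp and 348 had more than 3 bp. In the shares that follow, junctions with an insertion were left out. MH is the stretch of a read that both alignments, bait and prey, cover. For 841 of 1070 junctions without insertion the overlap could be compared base by base with GRCm38 on both sides, and it held exactly for 815 of them.

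Direct joins were the most common in the WT tail and rare elsewhere. They made up 33.3%, 20% and 21.4% of junctions in WT A, B and C, from only 3, 6 and 6 joins. The share was 4.85%, 7.02% and 6.54% in Shld1-/-, and 3.37% and 5.56% in Shld1-/-Xlf-/-. In Xlf-/- it was 0% in A, where 0 of 37 allows a share of up to 8.11% (3 junctions of 37), and 9.17% in B. Every WT library lay above every other library. With printed genotypes the share differed by −11.01 points without XLF (exact permutation p = 0.02, adjusted 0.05) and by −9.45 points without SHLD1 (exact permutation p = 0.05, adjusted 0.0714). Both means rest on the step from WT to either loss, at −20.3 points for XLF and −18.8 points for SHLD1, with −1.68 and −0.13 points when the other gene was lost too. The XLF difference no longer passed with MH recounted over exactly matching bases (−10.6 points, exact permutation p = 0.08), with the tail starting 1 kb lower (−5.42 points, p = 0.367) or in 6 of 10 omissions of 1 library. Those were WT A, which had 9 tail junctions (−8.90 points), WT B (−12.2), WT C (−11.9), Xlf-/- A (−8.71), Xlf-/- B (−13.3) and Shld1-/-Xlf-/- A (−10.5), at exact permutation p of 0.05, and 0.125 for Xlf-/- A. By label the differences were −2.25 points for SHLD1 (exact permutation p = 0.8, adjusted 0.8) and −4.44 points for XLF (exact permutation p = 0.483, adjusted 0.625).

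Long MH, over 3 bp, was found in 0%, 30.0% and 10.7% of junctions in WT, from 0 of 9, 9 of 30 and 3 of 28. It was 38.8%, 33.1% and 33.6% in Shld1-/-, 27.0% and 33.0% in Xlf-/-, and 30.8% and 37.8% in Shld1-/-Xlf-/-. WT B overlapped the deficient libraries. With printed genotypes the differences were 12.9 points for SHLD1 (exact permutation p = 0.05, adjusted 0.0714) and 7.78 points for XLF (exact permutation p = 0.29, adjusted 0.322), and by label 10.2 points (p = 0.28, adjusted 0.625) and 3.53 points (p = 0.567, adjusted 0.63) by the same exact permutation. The mean MH of tail junctions was nearly the same in all 7 libraries that were not WT, at 2.99 to 3.15 bp, and 1 to 2.40 bp in WT.

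Within libraries, the tail held fewer direct joins than the core. In Shld1-/- the core shares were 19.7%, 19.9% and 15.6%, against 4.85%, 7.02% and 6.54% in the tail. In Xlf-/- they were 19.2% and 13.6% in the core, against 0% and 9.17% in the tail. In Shld1-/-Xlf-/-, where direct joins were already rare in the core at 6.78% and 5.26%, the tail stood at 3.37% and 5.56%. In WT the core had 30.4%, 30.8% and 31.1%. Over the 10 libraries the tail minus the core was −8.11 points ± 6.92 (SD; exact sign-flip permutation p = 0.00781, adjusted 0.0156), lower in 8 and higher in WT A and Shld1-/-Xlf-/- B. This comparison uses no genotype and does not depend on the labels. Long MH was 3.54 points higher in the tail ± 8.42 (SD; exact sign-flip permutation p = 0.217, adjusted 0.26), in 7 of 10 libraries.

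**Figure D5:**
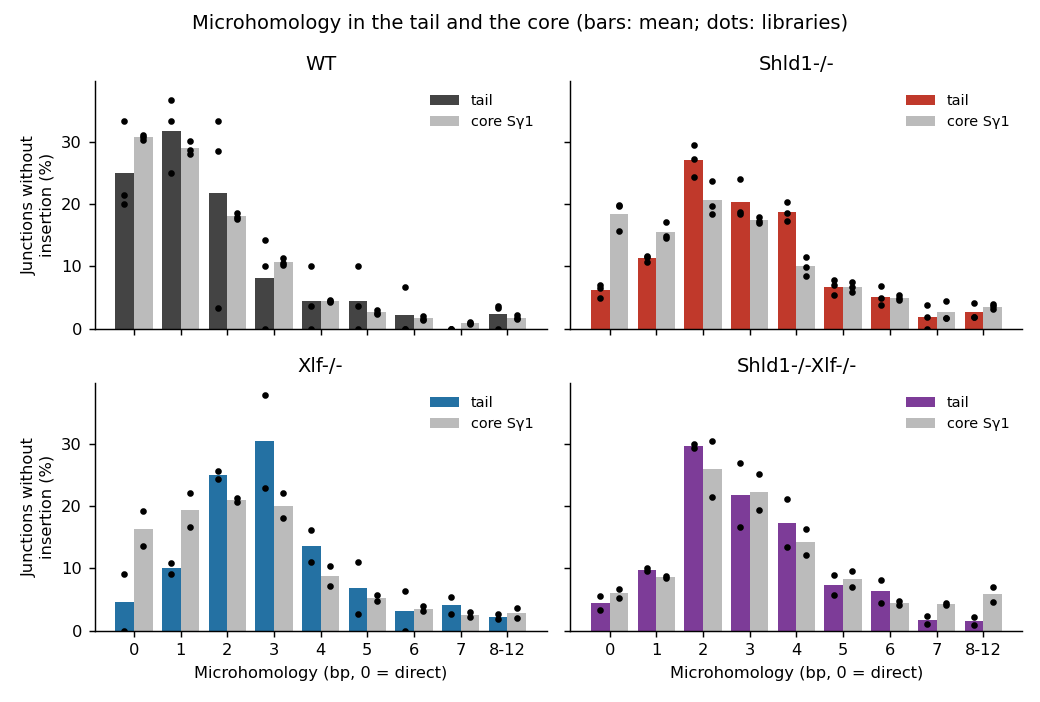
Percent of junctions without insertion (y axis) at each MH length in bp (x axis, 0 is a direct join), in the tail (coloured) and the core (grey) of each printed genotype. Bars are means and dots are libraries. In Shld1-/- the tail bar at 0 bp is well under the core bar, and in Shld1-/-Xlf-/- both are low.

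Insertions in the tail did not follow their pattern in the core. In the core they were found in 15.2% to 19.97% of junctions in the 6 libraries printed with XLF and in 8.53% to 10.8% in the 4 without it. In the tail the share was 0%, 11.8% and 9.68% in WT, 14.2%, 12.6% and 11.6% in Shld1-/-, 21.3% and 14.2% in Xlf-/-, and 13.7% and 16.7% in Shld1-/-Xlf-/-. Over all 10 libraries the tail minus the core was −1.54 points ± 8.81 (SD; exact sign-flip permutation p = 0.596, adjusted 0.596), lower in 6 and higher in 4. Those 6 were the libraries with XLF and those 4 the ones without it.

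Few tail positions recurred. The 1236 junctions fell on 1104 distinct positions and strands, of which 1039 were seen in 1 library, 61 in a pair of libraries and 4 in 3 libraries. Each of the 4 was deletional, and at each of them reads with different bait ends were found. At the position 4.415 kb below the core, however, a read of Shld1-/- B and one of Shld1-/-Xlf-/- A share their bait end, with 6 bp of MH in each. The reads at the position 11.1 kb below the core are shown next. They reach it from different bait ends, with 5, 3 and 2 bp of MH and 1 inserted base. Their shared prey bases match except for 1 base in the read of Shld1-/- C.
Shld1-/- A, chr12 position 114557930, 5 bp of MH: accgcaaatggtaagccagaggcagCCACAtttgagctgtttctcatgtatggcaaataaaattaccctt
Shld1-/- A, chr12 position 114557930, 3 bp of MH: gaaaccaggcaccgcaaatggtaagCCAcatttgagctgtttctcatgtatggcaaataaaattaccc
Shld1-/- C, chr12 position 114557930, 2 bp of MH: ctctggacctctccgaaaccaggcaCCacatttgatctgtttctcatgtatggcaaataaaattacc
Shld1-/-Xlf-/- A, chr12 position 114557930, 1 inserted base: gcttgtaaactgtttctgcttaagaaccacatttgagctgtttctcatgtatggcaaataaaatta

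The position 2.32 kb below the core gave a direct join in one library and 2 and 5 bp of MH in the others. The reads of Shld1-/- B and C share their bait end there.
Shld1-/- B, chr12 position 114566678, direct join: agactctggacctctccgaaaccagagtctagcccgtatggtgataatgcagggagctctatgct
Shld1-/- C, chr12 position 114566678, 2 bp of MH: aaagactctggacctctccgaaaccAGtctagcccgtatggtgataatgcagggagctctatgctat
Xlf-/- B, chr12 position 114566678, 5 bp of MH: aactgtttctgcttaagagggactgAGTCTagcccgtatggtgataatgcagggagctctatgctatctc

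A search for AGCT, a 4-base motif that AID favours and that reads the same on both strands, set the tail apart from the core. In the GRCm38 stretch spanned by the placed tail junctions AGCT occurred 5.14 times per kb, and in the stretch spanned by placed core junctions 16.6 times per kb. A window of 50 bases centred on a placed core junction held AGCT in 69.5% of 13566 cases, against 59.6% of all windows over the core. Around placed tail junctions it was 21.8% of 1228, against 20.4% of all windows over the tail. By printed genotype the tail value was 31.1% in WT, from 74 junctions, 22.9% in Shld1-/-, 22.0% in Xlf-/- and 17.9% in Shld1-/-Xlf-/-. These shares join libraries and were not tested. In the core 3596 of 17162 junctions were not placed, so the core value covers the reads that could.

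At the far end of the tail, 6 junctions from 6 libraries fell within 38 bp, at chr12:114552061-114552098 on mm9, out of 7 junctions in the last 500 bp. They came from WT B and C, Shld1-/- A and C and both Shld1-/-Xlf-/- libraries, 5 were deletional and 1 inversional, and all had 2 to 5 bp of MH. All 6 lay within a 50-base window with AGCT, which 20.4% of all windows over the tail also held. Because the 6 junctions lay within 38 bp, their windows overlap and can share the same motif. They are therefore not 6 separate observations, and no enrichment of AGCT can be read from them. The runs of WT B and Shld1-/- A at 16.9 kb shown above are 2 of the 6 junctions. This group was picked after its values were seen and was not tested.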

How the data were processed

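CSR-HTGTS junctions were measured in 10 C57BL/6 libraries. The authors mapped reads with their published pipeline (Bowtie2 and mm9, per the submitters' processing notes) and deposited 1 row per junction with positions, strands, read offsets and flags, not normalized counts. Of 15 libraries, 2 with MH lengths only and 3 of another strain were not analysed here. Rows flagged as duplicates or for mapping quality were kept.

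MH was the bait's last minus the prey's first read base plus 1, and negative values were insertions. Junctions were inversional when prey and bait strands differed. Reads were placed on GRCm38 by unique exact 25-base matches, within 1 bp of the commonest displacement. Library values were compared by exact two-sided permutation within the genotype of the other gene, and tail with core by sign flips, tested on simulated data (Python 3.11.15, numpy 2.4.6, pandas 2.3.3, scipy 1.17.1, matplotlib 3.10.9). Shares need counts: libraries held 9 to 277 tail junctions, and 3 junctions are 0.04% to 0.26% of a library's Igh junctions. The tail, measures and comparisons were chosen with earlier results of these data known. Sequences and positions named were the longest exact MH, the farthest deletional junction and positions in 3 libraries.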

Additional observations from a re-analysis of the deposited data

Results flagged for a closer look

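The difference in insertions between tail and core ran in opposite directions with and without XLF. In libraries printed with XLF the tail minus core difference was −17.2 to −1.91 percentage points, and in those without it 3.35 to 12.3 points. The difference between the 2 sets, averaged within SHLD1 genotypes, was 14.4 points. It was noticed in these values, so the exact permutation that was then run on them only restates it and is not used as support. The set with XLF holds WT A, with 0 insertions in 9 tail junctions. Leaving out 1 library at a time gave 12.2 to 16.7 points, with 12.7 points without WT A. By label the difference was 2.99 points.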

How the results depend on the processing

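Over 30 results and 510 alternatives, 456 kept direction and side of the threshold (0.05 for the unadjusted exact permutation p), 9 lost it, 18 gained it and 27 turned sign. Differences are in percentage points, loss minus present unless said. The label tests turned to the printed genotypes gave 7.38 (tail share, SHLD1), 8.82 (inversional, SHLD1), 32.8 (far share, SHLD1) and −11.01 (direct, XLF), each now past the threshold, and −0.99 (far share, XLF) and −1.10 (difference of the SHLD1 effects), each with the sign turned. The cause of the conflict between labels and figures was not tested. With the printed genotypes, the XLF difference in tail share passed with the denominator core and tail (7.68), with deletional junctions only (2.53) and with the tail cut at the lower end of the plotted window (1.88), where the inversional XLF difference passed too (5.61). The direct-join XLF difference lost its call with the tail 1 kb lower (−5.42), with exact MH (−10.6) and with a minimum of 20 tail junctions, which drops WT A (−8.90). The long-MH SHLD1 difference passed with deletional junctions only (16.3) and with that minimum (9.53). Signs turned, none past the threshold, for long MH and XLF with the tail 1 kb lower (−8.01), for the far share and XLF with the cut tail (0.81) and deletional junctions (0.20), and for the difference of SHLD1 effects over core and tail (4.98). By label, signs turned for direct joins with the minimum (SHLD1 2.91, XLF 0.72) and the lower tail (XLF 6.45), and for long MH and XLF with the lower tail (−6.67) and the minimum (−1.96). Insertions, tail minus core, turned with the lower tail (1.68) and the minimum (0.20), and their label difference by XLF did so too (−1.58 and −0.74).

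Leaving out 1 library at a time gave, by label, −5.49 to 2.91 (direct, SHLD1), −7.68 to 0.72 (direct, XLF), −1.96 to 7.75 (long MH, XLF), −2.09 to 7.10 (difference of SHLD1 effects) and −1.01 to 6.996 (insertions by XLF). With printed genotypes it gave 1.25 to 2.24 (tail share, XLF), −11.7 to −7.16 (direct, SHLD1), −13.3 to −8.71 (direct, XLF), 9.53 to 17.03 (long MH, SHLD1) and −3.54 to 0.98 (far share, XLF). Insertions, tail minus core, gave −3.08 to 0.20. The SHLD1 differences by printed genotype in tail share, far share and inversional share kept their call in all 10 omissions, and so did direct joins, tail minus core. No paired analysis was possible because the replicate numbers in the labels do not tie libraries of different groups to one animal or day. Low tail counts limit WT most, although its libraries held the most Igh junctions: WT A had 9 tail junctions among 4109 Igh junctions. All added alternatives, the comparison with the flank and the insertion comparison by XLF were chosen after seeing the data.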
